A study of Mus musculus with 8 samples.

Results

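The receptors through which myeloid growth factors and related cytokines act were followed in mouse hematopoietic stem and progenitor cells after a single dose of IFNα. The 6 genes, Csf1r, Csf2ra, Csf2rb, Csf3r, Il3ra and Il6st, were taken by symbol from the 27998 rows of the feature table, and all 6 had UMIs (unique molecular identifiers, each counting 1 captured transcript) in the kept cells of every library. C57Bl/6 wild-type mice of 12 to 14 weeks received 100 µl PBS (control) or 50000 IU IFNα per 20 g body weight under the skin, and bone marrow was taken 3 h, 24 h or 72 h after IFNα. Lineage-negative c-Kit+ (LK) cells, with further LK CD150+ CD48- CD34- cells added to enrich for stem cells, were sequenced as 1 droplet library per time point, each holding 4 mice told apart by hashtag antibodies. Because each time point is 1 library, IFNα time point and library cannot be told apart, and p-values below measure the spread between mice of these libraries.

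Csf1r is the receptor tyrosine kinase for CSF1 and IL-34 and carries signals for survival and differentiation of monocytes and macrophages. Csf2ra and Il3ra encode the ligand-binding alpha chains for GM-CSF and IL-3, and both pair with the common beta chain Csf2rb, which signals through JAK2 and STAT5. Mice also have Csf2rb2, a near copy of Csf2rb that pairs with the IL-3 alpha chain. Csf3r binds G-CSF and drives granulocyte production. Il6st (gp130) is the signalling chain shared by IL-6, IL-11, IL-27, LIF and oncostatin M, and it signals mainly through JAK kinases and STAT3. Transcripts, not surface receptors, were measured here.

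The stretch upstream of Il6st is shown because this receptor fell in monocyte-directed progenitors and because its promoter holds a STAT-binding element already described for the gene, TTACGGGAA, so that the presence of the element is no finding. The element starts 120 bases before the start site and is in capitals in the 250 bases before the RefSeq start (GRCm38.p6, chr13:112463820-112464069, plus strand).
Il6st: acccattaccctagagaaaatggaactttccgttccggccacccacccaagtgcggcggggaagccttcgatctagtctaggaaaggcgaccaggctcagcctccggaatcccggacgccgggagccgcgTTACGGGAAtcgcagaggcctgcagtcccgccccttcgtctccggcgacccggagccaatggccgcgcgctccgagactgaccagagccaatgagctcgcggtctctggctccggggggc
The same letters, on either strand, occur in 0.113% of the 32851 promoter windows of the table (250 bases before to 50 after each start). The windows of Il6st, Csf3r, Il3ra and Csf2ra held no TTCNNNGAA, the general STAT form found in 8.30% of windows, no GAAA followed by any 2 bases and GAAA, the core of interferon-stimulated response elements found in 3.44%, and no GAGGAAGT, a PU.1 form found in 3.20%. The window of Csf2rb2 held 1 match to TTCNNNGAA and 1 to GAGGAAGT. The other receptors named here were not matched to the table.

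In all 10046 cells were kept, from 1661 (3 h) to 3462 (24 h) per library, and 3 cell barcodes occurred in more than 1 library. The 3 h library was the shallowest, with a median of 12017 UMIs per kept cell against 14763 to 18964.5 in the other libraries. Control mouse 4 gave 58 kept cells and had the 10 cells required of a mouse only in the HSC and neutrophil-directed classes, so that the other classes have 3 control mice. It had 8 and 4 cells in the HSC clusters, so that its HSC levels rest on few cells. Control cells were clustered without using the 6 receptors and named by marker genes, and cells of the other libraries took the name of their nearest control cells. The receptors were tested in 6 classes, HSC, LMPP (lymphoid-primed multipotent progenitor), monocyte-directed, neutrophil-directed, erythroid and MK (megakaryocyte) progenitors, each name standing for cells like that type. In control cells the summed level of the HSC marker list was 994 to 1277 CPM (CPM being UMIs scaled to a common library total) in HSC and 35.5 to 43.4 CPM in monocyte-directed progenitors. The summed level of the monocyte-directed list overlapped between monocyte-directed (3344 to 4189 CPM) and neutrophil-directed progenitors (2874 to 4235 CPM), whereas that of the neutrophil-directed list was 17029 to 17936 CPM in the former and 38308 to 47328 CPM in the latter. The leading genes of the monocyte-directed cluster included Ms4a6c, F13a1, Ly86, Ccr2 and Irf8. The LMPP list overlapped between LMPP (467 to 621 CPM) and HSC (420 to 984 CPM) and did not set these classes apart. The list of basophil, mast cell and eosinophil markers was 410.5 to 907 CPM in LMPP and 0 to 70.2 CPM in HSC. The larger LMPP cluster was led by Ms4a2, Rnase12 and Cpa3, with Dntt and Flt3 also among its leading genes, so the name LMPP is tentative.

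In the GENCODE annotation of GRCm38, Csf3r (ENSMUSG00000028859) spans chr4:126024550-126044440, Il6st (ENSMUSG00000021756) chr13:112464070-112510086, Il3ra (ENSMUSG00000068758) chr14:14346275-14356011, Csf1r (ENSMUSG00000024621) chr18:61100598-61132149 and Csf2ra (ENSMUSG00000059326) chr19:61223957-61228429. Csf2rb (ENSMUSG00000071713) at chr15:78325752-78353847 and Csf2rb2 (ENSMUSG00000071714) at chr15:78282507-78305721 lie close together on opposite strands. Droplet reads come from transcript 3′ ends, so the words of 50 bases in the last 500 bases of the transcripts were compared with those of all other genes. Of the Csf2rb words 6.64% were shared with Csf2rb2, and of the Csf2rb2 words 2.33% with Csf2rb. For Csf3r 13.3% of the words occurred in 189 other genes, and for Csf1r, Csf2ra, Il3ra and Il6st none did.

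In control mice the receptors were spread differently over the classes. Among the classes tested Csf1r was highest in monocyte-directed progenitors at 45.2 ± 6.4 CPM (SD, n = 3). In neutrophil-directed progenitors it was 27.8 ± 17.0 CPM (n = 4), where control mouse 4 stood at 53.2 CPM and the other mice at 19.2 to 19.4 CPM. Csf1r was 11.5 ± 2.45 CPM (n = 3) in LMPP and 2.42 ± 2.43 CPM (n = 4) in HSC, and it had no UMI in the erythroid progenitors of the 3 control mice. Csf3r was spread more evenly over the myeloid and stem cell classes. It was 37.3 ± 6.94 CPM in neutrophil-directed progenitors, 29.9 ± 5.25 CPM in HSC (n = 4 each), 27.7 ± 0.782 CPM in LMPP and 25.3 ± 4.06 CPM in monocyte-directed progenitors (n = 3 each), and from HSC downward neighbours in this order differed by less than the larger SD. In MK progenitors Csf3r was 7.88 ± 3.34 CPM and in erythroid progenitors 0.376 ± 0.345 CPM (n = 3 each).

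The alpha chains had UMIs in every class. Csf2ra was 92.8 ± 3.57 CPM in neutrophil-directed progenitors (n = 4), 51.5 ± 2.80 CPM in monocyte-directed progenitors (n = 3), 38.1 ± 2.80 CPM in LMPP (n = 3) and 36.0 ± 7.42 CPM in HSC (n = 4), with LMPP and HSC inside their spread. It was 26.9 ± 3.62 CPM in MK and 14.0 ± 2.45 CPM in erythroid progenitors (n = 3 each). Il3ra was 60.3 ± 3.01 CPM in LMPP and 58.8 ± 2.57 CPM in monocyte-directed progenitors (n = 3 each), which lay inside their spread, then 45.3 ± 7.88 CPM in neutrophil-directed progenitors and 29.4 ± 11.1 CPM in HSC (n = 4 each). In MK and erythroid progenitors Il3ra was 19.5 ± 2.22 CPM and 4.04 ± 1.39 CPM (n = 3 each).

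The beta chain Csf2rb was 25.3 ± 6.18 CPM in neutrophil-directed progenitors (n = 4), 24.0 ± 5.73 CPM in LMPP and 22.0 ± 3.29 CPM in monocyte-directed progenitors (n = 3 each), all inside their spread. It was 10.1 ± 2.13 CPM in HSC (n = 4) and 2.29 ± 2.19 CPM in MK progenitors (n = 3). Among the classes tested Il6st was highest in monocyte-directed progenitors (25.0 ± 3.80 CPM, n = 3). It was 13.5 ± 6.63 CPM in HSC (n = 4), 13 ± 4.88 CPM in LMPP (n = 3), 5.03 ± 1.65 CPM in neutrophil-directed (n = 4) and 4.59 ± 2.10 CPM in MK progenitors (n = 3).

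Clusters with too few cells for a test held higher levels of some receptors. The cluster led by Cd74 and H2-Aa, called monocyte or dendritic cell-like, held 35 control cells. Its pooled level was 272 CPM for Csf2ra, 89.3 for Il3ra, 78.4 for Csf2rb, 76.2 for Csf1r, 50.1 for Il6st and 10.9 CPM for Csf3r. In the 18 control cells of the cluster led by Prss34 and Prg2, called basophil, mast cell or eosinophil progenitor-like, the pooled level was 200.1 CPM for Il3ra and 134 CPM for Csf2rb. These are single pooled values with no replicate check.

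**Figure D1:**
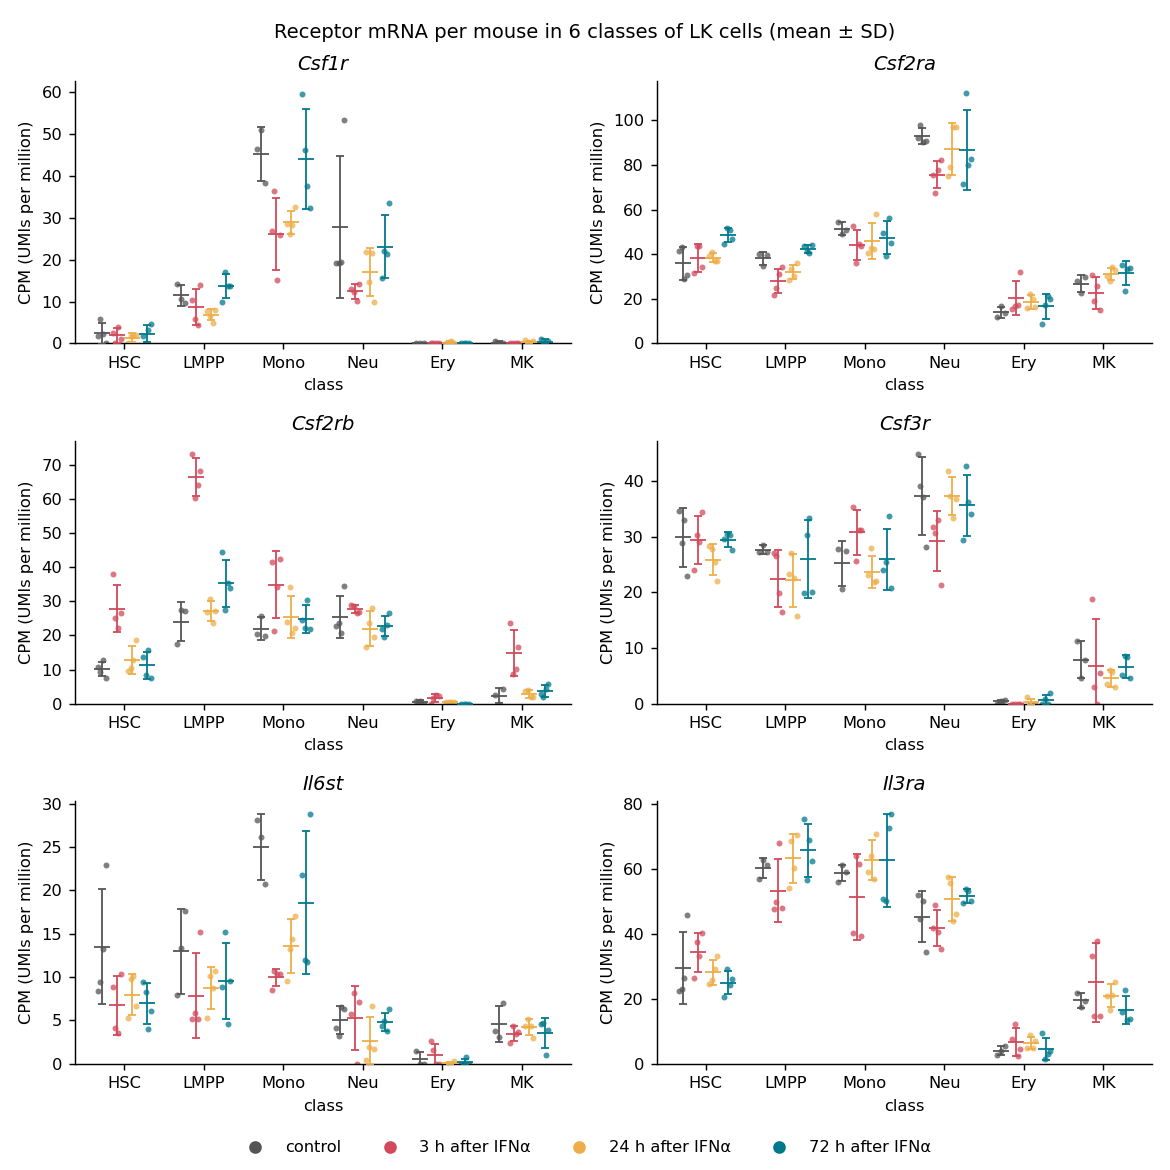
Level of each receptor in CPM (UMIs scaled to a common library total by TMM) for every mouse with at least 10 cells in the class. Points are mice, horizontal marks are means and bars are SD, and colours are control and 3 h, 24 h and 72 h after IFNα. Csf2rb stands higher at 3 h in HSC, LMPP and MK progenitors. In MK progenitors it passed the filter on low counts used for the tests only through mice at 3 h. Csf1r and Il6st stand lower at 3 h and 24 h in monocyte-directed progenitors (Mono). No mouse at those times reaches the control range there, as for 11.1% (3 h) and 7.89% (24 h) of all genes in this direction.

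To find which receptors changed after IFNα, UMIs were summed per mouse and class and each time point was compared with control by the quasi-likelihood test of edgeR, adjusting p-values over all genes tested in the class (Benjamini-Hochberg). An adjusted p under 0.05 is called a change. Of the 36 pairs of a receptor and a class, 29 passed the filter on low counts. At 3 h 6 of the 29 pairs changed, 4 higher and 2 lower, beside 15.2% of all gene and class pairs tested (10.2% higher and 4.99% lower). All 4 rises were of Csf2rb (3 without MK progenitors, where the filter favoured a difference, as given below), and both falls, in monocyte-directed progenitors, were of Csf1r and Il6st. With an absolute log2 fold change over 1 required as well, 4 of the 29 pairs were called, among them Csf2rb in MK progenitors, beside 4.48% of all pairs. At 24 h 2 of the 29 pairs changed, both lower, beside 6.65% of all pairs (2.21% lower), and at 72 h 1 pair changed, higher, beside 5.86% (3.78% higher). Counted in either direction with no fold threshold, the shares called at 3 h, 24 h and 72 h were near the background. Csf2ra, Csf3r and Il3ra were called against control in none of the classes tested.

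**Figure D2:**
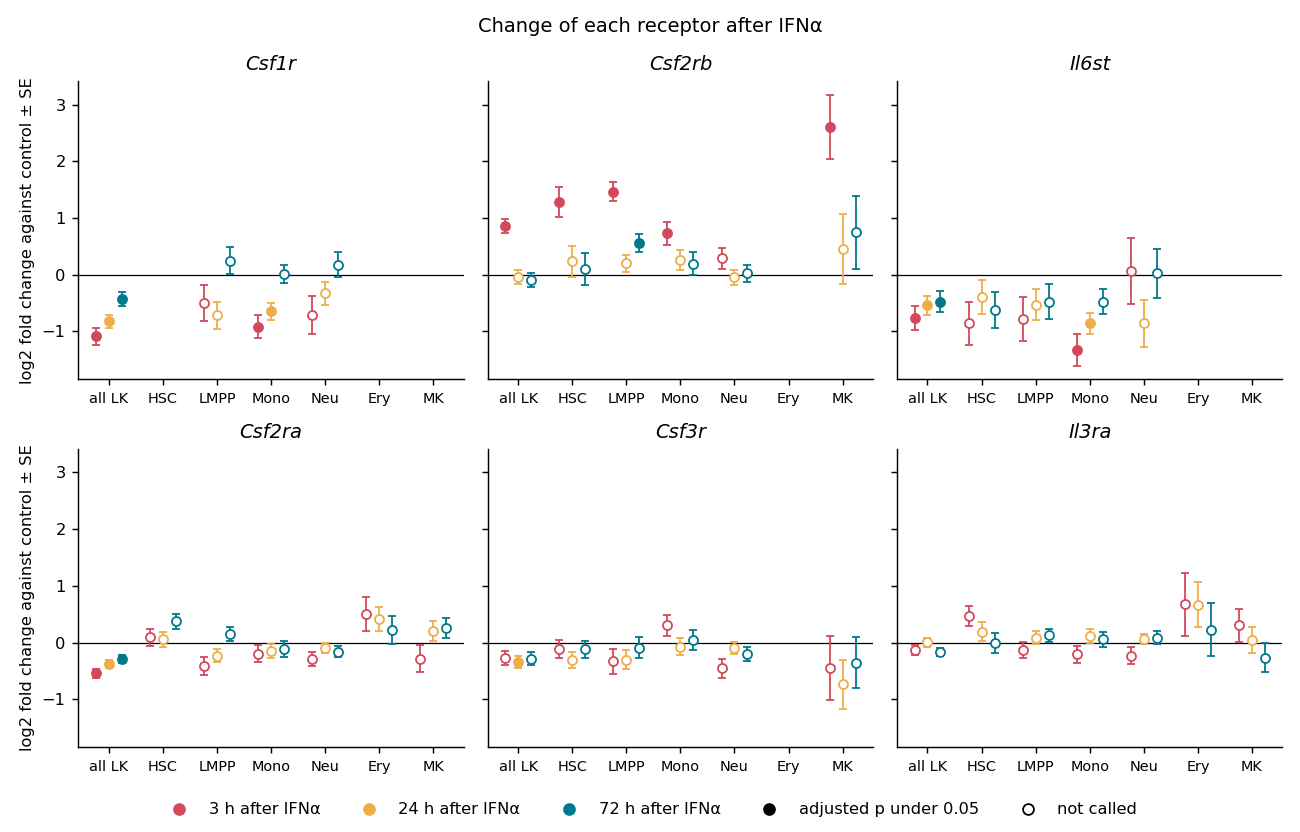
Log2 fold change against control (± SE from the edgeR fit) of each receptor in the whole compartment and in each class at 3 h, 24 h and 72 h. Filled points have an adjusted p under 0.05, and a class without points did not pass the filter on low counts. Csf2rb is raised at 3 h, by 1.28 in HSC and 1.46 in LMPP, and lies closer to 0 at 24 h.

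The common beta chain Csf2rb rose within 3 h and stood near the control level at 24 h. In HSC it was 7.64, 9.39, 10.6 and 12.7 CPM in the 4 control mice and 22.1, 25.0, 26.4 and 37.9 CPM at 3 h. The groups did not overlap, as for 12.2% of all genes in this direction, and the log2 fold change was 1.28 ± 0.27 (SE, adjusted p = 0.000451, edgeR quasi-likelihood). In LMPP Csf2rb was 17.4, 27.2 and 27.4 CPM in the 3 control mice and 60.3, 64.2, 68.2 and 73.3 CPM at 3 h. There was again no overlap (12.3% of all genes), and the log2 fold change was 1.46 ± 0.16 (adjusted p = 2.07e-08). In MK progenitors Csf2rb was 0, 2.50 and 4.36 CPM in the 3 control mice and 8.77, 10.3, 16.6 and 23.6 CPM at 3 h. The fitted log2 fold change of 2.61 ± 0.57 (adjusted p = 0.000955) rests there on 9 control UMIs. In this class Csf2rb passed the filter on low counts only through the 4 mice at 3 h, no mouse of another group reaching its limit of 7.79 CPM, so that a pass implied a difference and the call is no independent sign of a rise. In monocyte-directed progenitors Csf2rb was 19.9, 20.3 and 25.8 CPM in the control mice and 21.3, 34.3, 41.5 and 42.6 CPM at 3 h. All but 1 of the mice at 3 h lay above every control mouse, with a log2 fold change of 0.73 ± 0.20 (adjusted p = 0.00994, and 0.0613 without mouse 4 of the 3 h group).

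The response of neutrophil-directed progenitors was set against that of HSC. In the former Csf2rb was 25.3 ± 6.18 CPM in control and 27.8 ± 1.13 CPM at 3 h (n = 4 each), a log2 fold change of 0.29 ± 0.19 that was not called (adjusted p = 0.377). The class by time point interaction, with the mouse as a block, gave a log2 difference of -1.08 ± 0.32 between neutrophil-directed progenitors and HSC at 3 h (adjusted p = 0.0464). It was the only call among 102 interaction tests of the receptors, beside 1.03% of all such tests, and it was lost in 13 of 24 alternatives. The makeup of the class had also shifted: its cluster led by S100a8 and S100a9 held 40.2% of the class in control and 17.3% at 3 h. In its other cluster, led by Ly6c2, Slpi and Mpo, the log2 fold change of Csf2rb was 0.34 ± 0.20 (adjusted p = 0.319).

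Single clusters gave a closer view of Csf2rb in HSC. In the HSC cluster led by Wfdc17 and Myl10 it went from 9.27 ± 1.96 CPM (n = 3) to 30.6 ± 4.92 CPM (n = 4), a log2 fold change of 1.65 ± 0.29 (adjusted p = 4.72e-05). In the HSC cluster led by Ltb and Ly6a it was 15.5 ± 4.39 CPM (n = 3) in control and 17.6 ± 14.4 CPM (n = 4) at 3 h, with a log2 fold change of -0.054 ± 0.57 (adjusted p = 0.979). The difference between these clusters was not tested. Csf2rb was also called higher in the unnamed cluster of dividing cells led by Nusap1 and Prc1 (log2 fold change 1.39 ± 0.38, adjusted p = 0.00975). Its control level there was 10.1 ± 3.34 CPM (n = 3). How Csf2rb passed the filter on low counts in single clusters was not examined, so that such calls may be no independent sign of a rise. Over all clusters tested 9.32% of gene and cluster pairs were called higher at 3 h.

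Between 3 h and 24 h Csf2rb fell in HSC (log2 difference -1.05 ± 0.22, adjusted p = 0.000630), LMPP (-1.26 ± 0.15, adjusted p = 4.67e-08) and MK progenitors (-2.16 ± 0.46, adjusted p = 0.000867, under the same filter). These falls were among 5 calls in 58 tests of the receptors between successive time points, beside 7.78% of all such tests. At 24 h Csf2rb was 12.8 ± 4.08 CPM in HSC and 27.1 ± 2.86 CPM in LMPP (n = 4 each), and neither was called against control (adjusted p = 0.730 and 0.570). In LMPP it was 35.3 ± 7.0 CPM at 72 h (n = 4, log2 fold change 0.56 ± 0.16, adjusted p = 0.0344). That call was lost in 8 of 24 alternatives, among them those without control mouse 1 or without mouse 1, 3 or 4 of the 72 h group, with adjusted p up to 0.742. In erythroid progenitors Csf2rb was 0 to 0.898 CPM in control and 0 to 2.49 CPM at 3 h and was not tested.

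Markers of other cell types that could carry Csf2rb were summed beside this rise. The LMPP class includes a cluster whose leading genes include Ms4a2 and Cpa3, genes of mast cells and basophils, which held 73.0% of the class in control and 85.7% at 3 h. Within it Csf2rb rose by a log2 fold change of 1.46 ± 0.17 (adjusted p = 7.20e-08). The 11 basophil, mast cell and eosinophil markers summed to 410.5 to 907 CPM per mouse in LMPP in control and 572 to 916 CPM at 3 h, with Ear1 at 0 in both. Their sum in LMPP was 627 to 785 CPM at 24 h and 452 to 2137 CPM at 72 h, when Csf2rb was also called higher in this class. The 12 monocyte or dendritic cell markers summed to more at 3 h, 328 to 1017 CPM in control and 1566 to 1841 CPM at 3 h in HSC and 474 to 494 CPM and 1080.2 to 1198 CPM in LMPP. Of that list Bst2, itself an interferon-stimulated gene, was called higher in HSC (log2 fold change 2.87 ± 0.087) and LMPP (2.24 ± 0.072), Lyz2 was called lower in both and Cd74 in HSC (-1.31 ± 0.34, adjusted p = 0.00417). Cd209a was at 0 in both classes in control and at 3 h, and Siglech at 3 h. The 12 monocyte-directed markers also summed to more at 3 h, 847 to 1243 CPM in control and 1258 to 1451 CPM at 3 h in HSC and 1379 to 1606 CPM and 1782 to 1975 CPM in LMPP. Of that list Ctss, Ms4a6b and Ms4a6c were called higher in both, Ms4a6c by a log2 fold change of 3.58 ± 0.13 in HSC and 2.02 ± 0.084 in LMPP, while Slpi was called lower in HSC, and Zeb2 and Irf8 in LMPP. At 3 h Ms4a6c (3.31 ± 0.24) and Ms4a6b (3.23 ± 0.33) were also called higher in MK progenitors. Ms4a6b was called higher in neutrophil-directed (1.35 ± 0.18) and monocyte-directed progenitors (1.18 ± 0.12) as well. These sums were scaled by total UMIs alone, unlike the receptor levels. With that scaling the median log2 fold change over all genes at 3 h was -0.244 in HSC and -0.185 in LMPP. The part of these lists in the rise of Csf2rb was not tested.

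The near copy Csf2rb2 was called higher in the whole compartment, at a lower level. There it went from 1.08 ± 0.798 CPM (n = 4) to 5.03 ± 0.923 CPM (n = 4) at 3 h (log2 fold change 1.81 ± 0.27, adjusted p = 1.13e-05). In LMPP it was 2.58 ± 1.72 CPM (n = 3) in control and 9.71 ± 6.77 CPM (n = 4) at 3 h, and it passed the filter there through mice at 3 h and 72 h and no control mouse, so that its test is no independent sign of a rise. In HSC it was 1.55 ± 1.27 CPM (n = 4) and 7.79 ± 1.59 CPM (n = 4) and did not pass the filter. The pair shares some words of 50 bases, and how reads from these words were counted was not tested.

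Csf1r fell in monocyte-directed progenitors at 3 h and 24 h and stood at the control level at 72 h. It was 38.2, 46.5 and 50.8 CPM in the 3 control mice and 15.2, 26.0, 26.8 and 36.3 CPM at 3 h. All 4 mice at 3 h lay below every control mouse, as for 11.1% of all genes in this direction, and the log2 fold change was -0.92 ± 0.21 (adjusted p = 0.00121). At 24 h it was 26.1, 28.3, 28.6 and 32.6 CPM, again below every control mouse (7.89% of all genes), with a log2 fold change of -0.65 ± 0.15 (adjusted p = 0.00431, and 0.0598 without control mouse 2). At 72 h it was 32.2, 37.6, 46.2 and 59.6 CPM, which spans the control range, with a log2 fold change of 0.014 ± 0.16 (adjusted p = 0.980). The rise from 24 h to 72 h was called (log2 difference 0.66 ± 0.16, adjusted p = 0.0131) and was lost without mouse 2 of the 24 h group (adjusted p = 0.0551) or mouse 1 of the 72 h group (0.260).

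In LMPP Csf1r was 11.5 ± 2.45 CPM in control (n = 3), 8.62 ± 4.31 CPM at 3 h, 6.85 ± 1.37 CPM at 24 h, then 13.6 ± 2.88 CPM at 72 h (n = 4 each). Neither 3 h nor 24 h was called against control (adjusted p = 0.338 and 0.0783). The rise from 24 h to 72 h was called (log2 difference 0.96 ± 0.23, adjusted p = 0.0112, and 0.0663 without mouse 2 of the 72 h group). In neutrophil-directed progenitors Csf1r was 12.4 ± 1.69 CPM at 3 h (n = 4), with 4 of 4 mice below every control mouse, as for 6.85% of all genes, and a log2 fold change of -0.71 ± 0.33 that was not called (adjusted p = 0.175). In the interaction test at 3 h this response was not called different from that of monocyte-directed progenitors (log2 difference 0.21 ± 0.41, adjusted p = 0.963). In the cluster led by Ly6c2, Slpi and Mpo alone Csf1r fell, by a log2 fold change of -0.87 ± 0.30 (adjusted p = 0.0474), a call given to 4.18% of gene and cluster pairs in this direction. In HSC, erythroid and MK progenitors Csf1r did not pass the filter.

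Il6st, the gp130 chain whose upstream stretch is printed above, fell in monocyte-directed progenitors. It was 20.8, 26.2 and 28.1 CPM in the 3 control mice and 8.54, 10.4, 10.4 and 10.7 CPM at 3 h, with no overlap, as for 11.1% of all genes in this direction. The log2 fold change was -1.33 ± 0.28 at 3 h (adjusted p = 0.000487). At 24 h it was 9.53, 13.3, 14.4 and 17.1 CPM, also below every control mouse (7.89% of all genes), with a log2 fold change of -0.86 ± 0.19 (adjusted p = 0.00238). At 72 h it was 11.7, 12.0, 21.7 and 28.8 CPM, with 2 of 4 mice below every control mouse, and the difference was not called (log2 fold change -0.48 ± 0.22, adjusted p = 0.203). In HSC Il6st was 13.5 ± 6.63 CPM in control and 6.72 ± 3.39 CPM at 3 h (n = 4 each, log2 fold change -0.86 ± 0.38, adjusted p = 0.116). In LMPP it was 13 ± 4.88 CPM (n = 3) and 7.84 ± 4.89 CPM (n = 4, -0.78 ± 0.39, adjusted p = 0.195), and neither class was called.

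Marker lists were summed beside the falls of Csf1r and Il6st in monocyte-directed progenitors, and they did not all follow the same course. The 12 monocyte-directed markers summed to 3344 to 4189 CPM in control, 2977 to 3260.3 CPM at 3 h, 3009 to 3383 CPM at 24 h, then 2813 to 3437 CPM at 72 h. At 3 h 2 of the 12 were called higher and 8 lower, beside 10.8% and 7.07% of all genes tested in this class. The 11 HSC markers summed to 35.5 to 43.4 CPM in control, 61.1 to 86.7 CPM at 3 h, 67.2 to 89.7 CPM at 24 h, then 31.9 to 49.3 CPM at 72 h, with Fgd5 at 0 in control and at 3 h. Of this list Ly6a, itself an interferon-stimulated gene (2.90 ± 0.27), and Mllt3 (1.01 ± 0.35) were called higher at 3 h. The 8 LMPP markers found in the table summed to 98.0 to 123 CPM in control, 64.4 to 81.9 CPM at 3 h, 99.1 to 135 CPM at 24 h, then 98.1 to 113 CPM at 72 h, with Rag1 and Il7r at 0 in control and at 3 h. These sums were scaled by total UMIs alone, unlike the receptor levels. With that scaling the median over all genes in this class was a log2 fold change of -0.163 at 3 h. The part of these lists in the falls was not tested.

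For the alpha chains and Csf3r the values against control closest to the threshold in the classes were these, and of those between time points Csf2ra in LMPP from 24 h to 72 h was closest (log2 difference 0.38 ± 0.11, adjusted p = 0.0515). Csf2ra in LMPP was 34.9 to 39.9 CPM in control and 21.9 to 34.1 CPM at 3 h (log2 fold change -0.42 ± 0.16, adjusted p = 0.0649). Csf2ra in HSC was 28.7 to 43.3 CPM in control and 44.7 to 51.5 CPM at 72 h (0.38 ± 0.13, adjusted p = 0.113). Il3ra in HSC was 29.4 ± 11.1 CPM in control and 34.4 ± 5.98 CPM at 3 h (n = 4 each, log2 fold change 0.47 ± 0.18, adjusted p = 0.0659). The control mice spanned 22.3 to 45.8 CPM with a median of 24.8 CPM. In the HSC cluster led by Ltb and Ly6a Il3ra was called higher, at 14.3 ± 6.19 CPM (n = 3) in control and 33.9 ± 9.54 CPM (n = 4) at 3 h (log2 fold change 1.29 ± 0.43, adjusted p = 0.0435). How it passed the filter on low counts in this cluster was not examined, so that the call may be no independent sign of a rise. Such a call was given to 9.32% of gene and cluster pairs at 3 h. In the HSC cluster led by Wfdc17 and Myl10 Il3ra was not called (0.28 ± 0.20, adjusted p = 0.399), and the difference between these clusters was not tested. Csf3r in neutrophil-directed progenitors was 37.3 ± 6.94 CPM in control and 29.2 ± 5.38 CPM at 3 h (n = 4 each, -0.45 ± 0.17, adjusted p = 0.0732). With scaling by library size alone, under which the median over all genes at 3 h was a log2 fold change of -0.244 to -0.160 in the classes, against -0.039 to -0.023 with TMM, Csf2ra in LMPP and neutrophil-directed progenitors, Csf3r in neutrophil-directed progenitors and Il6st in HSC were also called lower at 3 h.

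In the whole compartment, where all kept cells of a mouse were summed, the test called 4 of 6 receptors at 3 h and 4 of 6 at 24 h, and it called 3 of 6 at 72 h, beside 38.8%, 28.3% and 37.4% of all genes. In such sums fewer cells of a class and fewer transcripts per cell cannot be told apart. Csf1r was 16.3 ± 2.58 CPM in control, 7.52 ± 2.26 CPM at 3 h, 8.83 ± 0.874 CPM at 24 h, then 11.5 ± 0.478 CPM at 72 h (n = 4 each). Its log2 fold changes were -1.09 ± 0.15, -0.82 ± 0.12 and -0.43 ± 0.12 (adjusted p = 5.89e-06, 1.95e-05 and 0.00912). Csf2ra was 53.3 ± 4.67 CPM in control, 37.3 ± 3.40 CPM at 3 h, 41.9 ± 3.38 CPM at 24 h, then 44.7 ± 3.23 CPM at 72 h (n = 4 each), with log2 fold changes of -0.54, -0.38 and -0.29 that were all called. The Csf2ra call at 72 h was lost with cells thinned to equal UMIs (adjusted p = 0.0541). Il6st was called lower at all 3 time points (log2 fold changes -0.77, -0.54 and -0.48). The Il6st call was lost without mouse 3 of the 3 h group at 3 h, without control mouse 1 or 3 at 24 h and 72 h, and at 72 h also without mouse 3 or 4 of the 72 h group and with DESeq2. Csf2rb was called against control at 3 h only (17.5 ± 1.55 CPM to 31.4 ± 6.04 CPM, n = 4 each, log2 fold change 0.86 ± 0.13, adjusted p = 1.08e-05). Csf3r was called at 24 h only (-0.34 ± 0.11, adjusted p = 0.0209), and not with thinned cells or without control mouse 1 or mouse 3 or 4 of the 24 h group. Il3ra was not called at any time point, but with scaling by library size alone Il3ra and Csf3r were also called at 3 h.

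The pooled difference in CPM between each library and the control library was then divided into a part from levels within the 15 clusters and a part from the clusters' shares of UMIs. For Csf1r at 3 h the difference of -9.17 CPM was made up of -7.73 CPM within clusters and -1.44 CPM from shares. At 72 h its difference of -4.06 CPM was made up of -0.804 CPM within clusters and -3.26 CPM from shares. For Csf2ra most of the difference at 24 h and 72 h came from shares, -10.5 of -13.6 CPM at 24 h and -11.7 of -11.0 CPM at 72 h. For Csf2rb at 3 h 11.7 CPM arose within clusters and -0.629 CPM from shares, and for Il6st at 3 h -5.26 and 0.772 CPM. Neutrophil-directed progenitors, where Csf2ra was highest among the classes tested, made up 19.1 ± 0.873% of the kept cells of a mouse in control, 6.56 ± 1.85% at 3 h, 9.04 ± 1.58% at 24 h, then 7.55 ± 2.20% at 72 h (n = 4 each). HSC made up 17.8 ± 2.53% in control and 31.9 ± 4.62% at 3 h, shares that also depend on the sorted cells added to each library. These values are pooled, scaled by total UMIs and not tested.

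**Figure D3:**
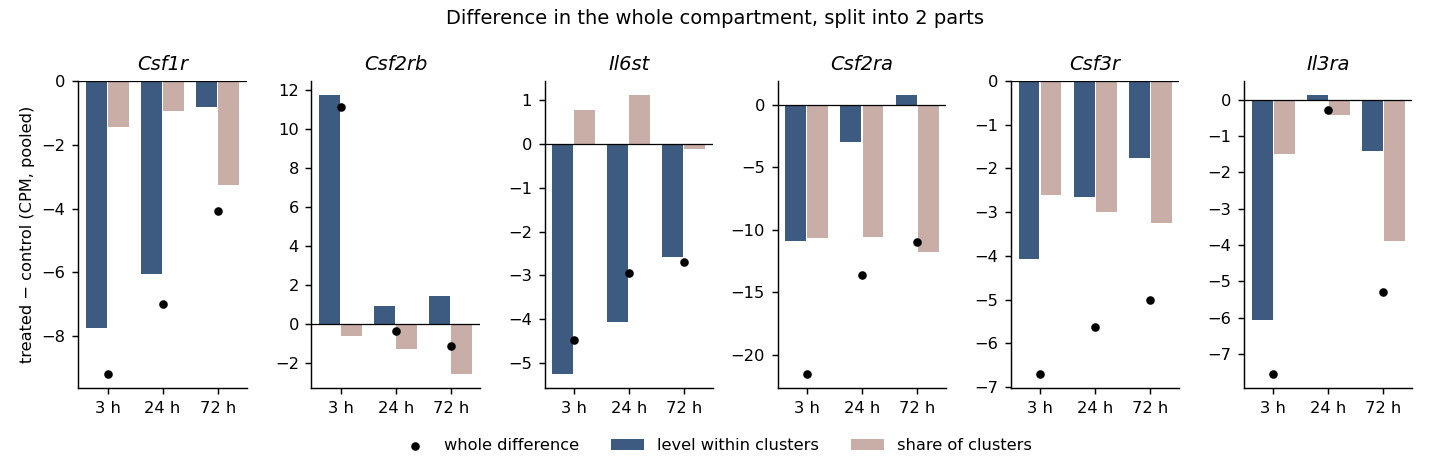
Difference in pooled level between each time point and control in the whole compartment (black points, CPM), divided into the part from levels within the 15 clusters and the part from the clusters' shares of UMIs (bars), with a vertical scale of its own for each receptor. For Csf1r at 3 h -7.73 of -9.17 CPM lies within clusters, and for Csf2ra at 72 h -11.7 CPM comes from shares.

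To see whether more cells held a transcript, the share of cells with at least 1 UMI was counted after each cell had been thinned to 5000 UMIs and shallower cells left out (0 to 34 cells per class and time point). Csf2rb was found in 12.6 ± 3.54% of LMPP in control (n = 3) and 22.6 ± 4.70% at 3 h (n = 4). Without thinning these shares were 31.1 ± 4.77% and 46.9 ± 4.19%. Csf2rb was found in 6.09 ± 3.33% and 9.82 ± 1.31% of HSC (n = 4 each), and in 1.09 ± 0.988% (n = 3) and 5.43 ± 3.79% (n = 4) of MK progenitors. In erythroid progenitors, the class with the lowest level of Csf2rb in control (0.553 CPM), the share was 0.476 ± 0.825% in control and 1.39 ± 1.61% at 3 h. The MK share in control lay within 1 SD of the erythroid share in control. Whether erythroid progenitors lack Csf2rb was not tested. Median depths before thinning were 29257 (control) and 20555 UMIs (3 h) in erythroid progenitors and 17340.0 and 13962 UMIs in LMPP.

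Csf1r was found in 21.9 ± 2.99% of monocyte-directed progenitors in control (n = 3), 11.1 ± 11.6% at 3 h, 12.1 ± 2.07% at 24 h, then 17.8 ± 5.83% at 72 h (n = 4 each), and without thinning in 62.8 ± 10.3% in control and 38.2 ± 9.80% at 3 h. Il6st was found in 11.3 ± 3.96% of these cells in control and 4.65 ± 1.16% at 3 h, and without thinning in 40.9 ± 6.57% and 17.9 ± 3.87%. In MK progenitors 0 of 272 control cells held Csf1r at this depth, which allows a share of up to 1.10% by counting error alone. These shares are a description and were not tested. Thinning to equal UMIs scales cells by total UMIs. With such scaling of class sums the median log2 fold change over all genes at 3 h was -0.244 (HSC) to -0.16 (neutrophil-directed). This limit also applies to the shares of cells with a pair of receptors below.

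**Figure D4:**
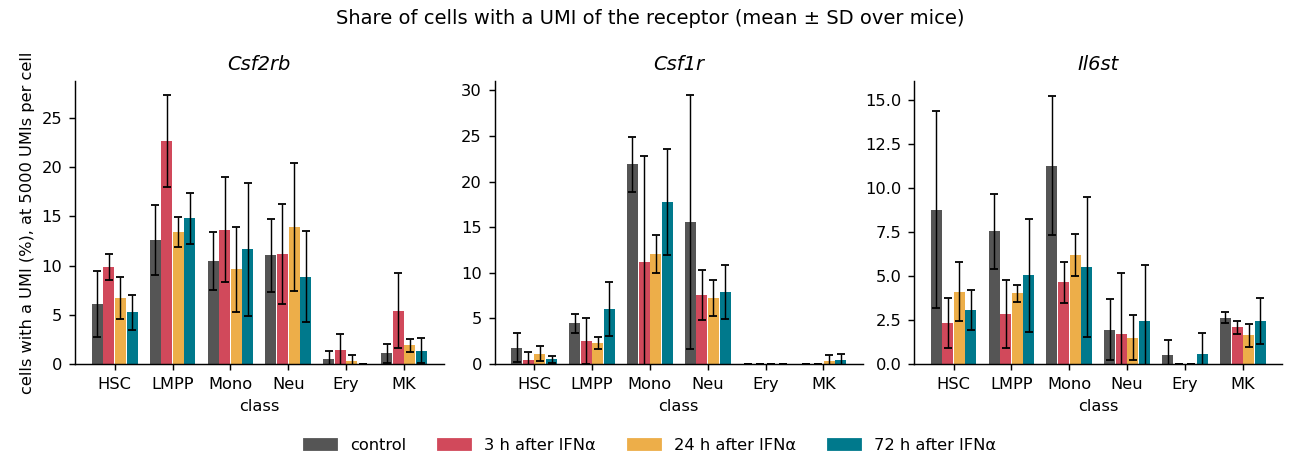
Share of cells with at least 1 UMI of a receptor (percent) in each class and at each time point, with every cell thinned to 5000 UMIs and error bars showing the SD over mice. Csf2rb in LMPP goes from 12.6 ± 3.54% in control to 22.6 ± 4.70% at 3 h, and Csf1r in monocyte-directed progenitors from 21.9 ± 2.99% to 11.1 ± 11.6%.

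Csf2rb signals in a pair with an alpha chain, so cells with a UMI of Csf2rb and of Csf2ra or Il3ra were counted at the same depth. They were 3.69 ± 1.03% of LMPP in control (n = 3), 8.72 ± 4.88% at 3 h, 5.95 ± 2.38% at 24 h, then 8.58 ± 2.71% at 72 h (n = 4 each). In HSC they were 3.51 ± 3.82% in control and 2.03 ± 2.06% at 3 h (n = 4 each). A cell with no UMI of a gene may still transcribe it, so these shares limit cells with UMIs only.

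Cells that held both Csf1r and Csf3r, the receptors of the monocyte and the granulocyte factor, were counted among monocyte- and neutrophil-directed progenitors. In the 4 control mice they were 0.873, 1.18, 1.75 and 6.25%, the last from 16 cells, with a mean of 2.51%. The mean was 0.966% at 3 h, 0.522% at 24 h, then 2.58% at 72 h. At 24 h all 4 mice (0 to 0.813%) lay below every control mouse. The exact two-sided permutation p was 0.0286 there, the smallest that 4 against 4 mice allow, or 0.0857 adjusted over the 3 tests. These shares at 24 h come from 123 to 225 cells per mouse and so rest on few cells with both. The share of cells with Csf1r was itself 8 to 10.9% at 24 h and 12.2 to 37.5% in control. Its part in the lower share with both was not tested. The differences at 3 h and 72 h had exact permutation p = 0.371 and 0.857 (adjusted 0.557 and 0.857).

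Some genes followed a receptor over the 24 groups of class and time point, by Pearson's correlation of their mean levels on the log2 scale among 7609 to 8364 candidate genes. Closest to Csf1r were F13a1 (r = 0.992), Tifab (r = 0.985), Ccr2 (r = 0.985), and closest to Csf2rb were Ms4a6c (r = 0.967), Arid5a (r = 0.962), Cd69 (r = 0.955). Closest to Il6st were Tpm4 (r = 0.945), Whsc1 (r = 0.937), Psap (r = 0.927). For Csf2ra they were Rab2a (r = 0.976), Gstm1 (r = 0.965), Tmx4 (r = 0.956), for Csf3r Orai1 (r = 0.990), Tmem173 (r = 0.984), Lcp1 (r = 0.983) and for Il3ra Fcer1g (r = 0.980), Igfbp4 (r = 0.978), Man2b1 (r = 0.978). The 24 points share 4 libraries and 6 classes, and the values are a description.

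Ligands of these receptors were measured in the same cells. Of 12 ligand genes 4 were tested in HSC. Csf1, the ligand of Csf1r, was 6.31 ± 6.10 CPM (n = 4) in control and 15.7 ± 3.81 CPM (n = 4) at 3 h, and Il27, which encodes a subunit of IL-27, was 1.79 ± 1.38 CPM (n = 4) and 17.0 ± 3.95 CPM (n = 4). In monocyte-directed progenitors Csf1 was 1.69 ± 1.07 CPM (n = 3) in control and 7.94 ± 2.90 CPM (n = 4) at 3 h. All 3 pairs were called, but each passed the filter only with mice at 3 h (in HSC 1 of 4 control mice reached its limit of 5.56 CPM for Csf1 and none for Il27, and in monocyte-directed progenitors no control mouse reached 5.6 CPM for Csf1), so that the calls are no independent sign of a rise. None of 3 ligands tested was called in LMPP, and no ligand tested was called at 24 h or 72 h in the classes.

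Partner receptors include the alpha chains that join gp130 or the beta chain. Of 8 listed, 2 were tested in monocyte-directed progenitors. Of these Il6ra, which binds IL-6 and joins gp130, fell at 3 h (log2 fold change -0.97 ± 0.19, adjusted p = 0.000184), a call given to 7.07% of all genes in this class. Il11ra1, the alpha chain for IL-11, fell at 3 h in HSC (-0.49 ± 0.14, adjusted p = 0.00941), LMPP (-0.51 ± 0.14, adjusted p = 0.0100) and MK progenitors (-0.82 ± 0.16, adjusted p = 0.000151), and rose in erythroid progenitors at 24 h (0.86 ± 0.17, adjusted p = 0.00111). Over all 6 classes 4.99% of gene and class pairs were called lower at 3 h, and 6.65% were called in either direction at 24 h. Il27ra was tested in 4 classes and called at 3 h in none. Il5ra, Lifr, Osmr and Cntfr did not pass the filter in any of the classes.

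Inhibitors of these signals were listed too. Of 13 negative regulators 10 were tested in monocyte-directed progenitors, where Socs1, an inhibitor of JAK kinases (3.00 ± 0.31, adjusted p = 3.02e-09, with no control mouse at the limit of the filter), and Spry2, a brake on receptor tyrosine kinase signals (1.30 ± 0.25, adjusted p = 0.000222), rose at 3 h and 1 fell. Of all genes tested in this class 10.8% were called higher and 7.07% lower at 3 h. In HSC 3 of 13 rose and 2 fell, beside 12.9% and 6.7% of all genes, and Socs3, which binds gp130, rose by a log2 fold change of 1.47 ± 0.36 (adjusted p = 0.00266).

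Genes known as targets of these receptors were listed as well. In monocyte-directed progenitors 7 of 13 tested rose and 1 fell at 3 h, beside the shares of all genes just given for this class, with a median log2 fold change of 0.85 beside -0.031 over all genes. The kinase gene Pim1 rose by a log2 fold change of 2.07 ± 0.13 and the cyclin gene Ccnd2 by 1.44 ± 0.10. In LMPP, where Csf2rb rose, 4 of 14 targets rose at 3 h, with Ccnd2 at 1.54 ± 0.088 and Pim1 at 1.45 ± 0.14, beside 10.6% of all genes, and the median was 0.29 beside -0.029. In neutrophil-directed progenitors, where Csf2rb was not called, 5 of 9 targets rose, with Pim1 at 1.72 ± 0.15, beside 9.11% of all genes, and the median was 0.35 beside -0.031. Ccnd2 also rose at 3 h in HSC (1.31 ± 0.069) and in erythroid progenitors (1.69 ± 0.12), where Csf2rb was too low to be tested. Pim1 also rose in HSC (1.19 ± 0.11) and MK progenitors (1.15 ± 0.098). Whether the targets moved through the receptors was not tested.

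Of 11 transcription factors known to act on these receptor genes, 10 were tested in monocyte-directed progenitors, and 4 fell and 1 rose at 3 h, beside 7.07% of all genes lower and 10.8% higher. The median log2 fold change of the 10 was -0.19 beside -0.031 over all genes. Klf4, a factor of monocyte differentiation, went from 23.5 ± 1.18 CPM (n = 3) to 3.06 ± 2.15 CPM (n = 4) (log2 fold change -2.76 ± 0.55, adjusted p = 0.000316) and was still lower at 24 h (-1.55 ± 0.32, adjusted p = 0.00149). Irf8 (-1.0 ± 0.11), Runx1 (-0.39 ± 0.11) and Spi1 (-0.24 ± 0.070) also fell at 3 h and were named after their values were seen. Cebpb rose at 3 h in these cells (0.86 ± 0.11), in HSC (1.44 ± 0.11) and in LMPP (1.44 ± 0.11). None of the 10 factors was called in monocyte-directed progenitors at 72 h. As a check on treatment, the interferon-stimulated gene Ifit1 rose at 3 h in all 6 classes, by a log2 fold change of 5.39 ± 0.14 in HSC to 8.49 ± 0.33 in monocyte-directed progenitors.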

How the data were processed

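The authors aligned reads to mm10 with Cell Ranger 3.1.0 and deposited raw UMI counts per gene and barcode for 4 libraries, with hashtag calls from Seurat that assign each cell to a mouse and with the score of that call (the margin between hashtags), which was not used; per the labels each library is 1 time point. Here cells called as multiplets or negative were removed (hashtag multiplets are the only doublets recognised), as were cells with over 5% mitochondrial UMIs or under 700 genes. Total UMIs of kept cells were 55267077 (control), 23823015 (3 h), 75766639 (24 h) and 43046628 (72 h), and intervals and limits for shares cover counting error only. Control cells were clustered on 500 variable genes without the 6 receptors (Leiden, resolution 0.8), and names passed to other libraries through mutual nearest neighbors over 3482 genes. Names rebuilt this way may differ from those of the study.

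Counts were summed per mouse and class (at least 10 cells) and tested with edgeR 4.0.16 (filterByExpr, TMM, quasi-likelihood; R 4.3.3), all time points in 1 fit, with Benjamini-Hochberg adjustment over all genes tested. CPM are counts scaled by the TMM library total. Marker list sums and pooled levels were instead scaled by total UMIs alone. The test was tried on simulated data with 200 changed genes, of which 77.5% (HSC), 70% (LMPP), 72.5% (monocyte-directed) and 63.5% (MK) were recovered at 2-fold. The changed genes were drawn from genes of all levels, with a common mean profile for all samples. Recovery of receptors near the limit of the filter may be lower. Of the simulated calls in LMPP 8.5% were false. The interaction test of neutrophil-directed progenitors and HSC recovered 41% at 2-fold, so an uncalled difference between classes may still be present. The members and lists were chosen with earlier results of these data known. Beside the receptors and all partner receptors, list genes were named when called with an absolute log2 fold change over 1 in a class, at most 3 per list, and other names are said to be chosen later. Alternatives were DESeq2 1.42.0, a likelihood ratio test, library size scaling, no count filter, other label transfers, tests per cluster, thinned cells, and leaving out each mouse. Results of some listed genes are not reported here.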

Additional observations from a re-analysis of the deposited data

Results flagged for a closer look

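Among 126 groups of 4 mice, 12 held a mouse apart from the other 3 by Dixon's ratio, where chance gives about 6.3. In the whole compartment these were Csf2ra at 3 h, with mouse 2 at 32.3 CPM and the others at 38.3 to 39.5 CPM, Il3ra in control, with mouse 4 at 31.3 CPM and the others at 40.7 to 42.0 CPM, and Il3ra at 3 h, with mouse 3 at 41.5 CPM and the others at 35.1 to 35.9 CPM. In LMPP at 3 h, mouse 3 had 67.9 CPM of Il3ra (others 47.6 to 50.0 CPM), and mouse 4 had 15.1 CPM of Il6st from 12 UMIs (others 5.15 to 5.88 CPM). In monocyte-directed progenitors, mouse 4 of the 24 h group had 58.0 CPM of Csf2ra (others 40.4 to 42.7 CPM), and mouse 1 of the 3 h group had 8.54 CPM of Il6st from 7 UMIs (others 10.4 to 10.7 CPM). In neutrophil-directed progenitors, control mouse 4 had 53.2 CPM of Csf1r from 17 UMIs (others 19.2 to 19.4 CPM). Csf2ra stood apart in erythroid progenitors at 3 h, with mouse 4 at 32.0 CPM from 14 UMIs (others 15.4 to 17.4 CPM), and in MK progenitors at 72 h, with mouse 2 at 23.7 CPM from 25 UMIs (others 33.4 to 35.0 CPM).

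The share of cells with both Csf1r and Csf3r was 6.25% of 16 cells in control mouse 4 (others 0.873 to 1.75%) and 7.25% of 69 cells in mouse 2 of the 72 h group (others 0.877 to 1.30%). The response of Csf2rb at 3 h differed between neutrophil-directed progenitors and HSC by a log2 difference of -1.08 in edgeR's interaction test (adjusted p = 0.0464). This was 1 call among 102 such tests of the receptors, beside 1.03% of all such tests, and it was lost in 13 of 24 alternatives.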

How the results depend on the processing

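Of 28 receptor calls, 15 were kept under every alternative that could be computed, 13 were lost under at least 1 and 0 turned direction; 61 pairs of a call and an alternative gave no value, because the receptor did not pass the filter there or the alternative leaves out the comparison. Calls at 3 h in the classes, 6 as reported, were 10 with scaling by library size alone and 3 with thinned cells, where the other 3 (Il6st and Csf2rb in monocyte-directed and Csf2rb in MK progenitors) did not pass the filter and gave no value. The 2 calls at 24 h were 0 with thinned cells, where that of Csf1r was lost and Il6st gave no value. The 1 call at 72 h was 0 with library size scaling, both other label transfers, thinned cells and tests per cluster. The 5 calls between successive time points were 8 with label transfer without correction and 1 with thinned cells, where 2 were lost (Csf2rb in HSC, and Csf1r in monocyte-directed progenitors) and 2 gave no value (Csf2rb in MK progenitors and Csf1r in LMPP). The 1 call between classes was 0 with DESeq2, library size scaling, uncorrected labels and thinned cells, and 4 with no filter on low counts. Leaving out each mouse gave 3 to 5, 2 to 4 and 2 to 4 calls in the whole compartment at 3 h, 24 h and 72 h, 6 to 7, 1 to 3 and 0 to 1 in the classes, 4 to 6 between successive time points and 0 to 2 between classes. The cause was not tested. The share with both Csf1r and Csf3r differed from control by -2.09 to -0.301 percentage points at 3 h, -2.54 to -0.745 at 24 h and -1.49 to 1.31 at 72 h without single mice. At 72 h the difference turned from 0.066 to -3.85 without thinning, and to -0.378, -0.48 and -0.189 without control mouse 1, 2 or 3. No paired analysis was possible because mice of different time points are different animals and the hashtag numbers do not pair them. The 3 h library was the shallowest, and how depth bears on its calls was not tested beyond the thinned cells.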
